A study of Mus musculus with 2 samples.

Results

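The cells described here are DKO eyecup cells that carry transcripts of *Eomes*, *Lhx9*, *Tbr1* and *Rspo3*, 4 genes with next to no transcripts in the control eyecup. A cell belonged to the group when these 4 genes together had at least 3 UMIs (unique molecular identifiers, each standing for 1 captured transcript). By this rule 808 of 10127 kept DKO cells (7.98%, 95% interval 7.46 to 8.52) and 3 of 7331 kept control cells (0.0409%, 0.00844 to 0.120) were chosen, of 17458 kept cells in all. The values below are those of the 808 DKO cells.

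The series holds 2 single-cell RNA-seq libraries from mouse eyecups (retina, lens and blood) at E13.5, 1 per genotype. The DKO library came from a *Six3F/F;Six6-/-;a-Cre* embryo, recognised by GFP-positive rosettes in the retina, and the control library from a littermate labelled *Six3+/-;Six6+/-* without this Cre. *Six6* is deleted in the germline of the DKO embryo, whereas the Cre deletes *Six3* in the retinal periphery and leaves it in the centre, so the DKO retina mixes cells with and without *Six3*. Both embryos therefore carry reduced *Six3* or *Six6*, and no wild-type eyecup was among the samples. Each genotype had 1 library, so no test was made, genotype, embryo and library cannot be told apart, and every interval below covers counting error only. Of the DKO and control cell barcodes 22 were shared, and 1 of the 808 cells had such a barcode.

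*Eomes* and *Tbr1* encode T-box transcription factors, which follow each other in the formation of glutamatergic neurons in the cerebral cortex. *Lhx9* encodes a LIM-homeodomain factor of developing forebrain neurons, *Rspo3* a secreted R-spondin that strengthens Wnt signaling at the receptor, and *Uncx* a paired-type homeodomain factor. *Six3* and *Six6* encode homeodomain factors of the eye field and the early retina.

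The genes that define the group lie on 4 chromosomes (GRCm38/mm10, GENCODE M21): *Eomes* (ENSMUSG00000032446) at chr9:118478212-118486132 on the plus strand, *Lhx9* (ENSMUSG00000019230) at chr1:138825186-138848577 on the minus strand, *Tbr1* (ENSMUSG00000035033) at chr2:61802930-61814114 on the plus strand and *Rspo3* (ENSMUSG00000019880) at chr10:29452416-29535867 on the minus strand. The sequences just before 3 of their start sites (RefSeq, GRCm38.p6) are shown because homeodomain factors such as Six3, Six6 and Lhx9 read short AT-rich cores. They are written 5′ to 3′ on the gene's strand with every TAAT, on either strand, in capitals. *Rspo3* is named only. The *Eomes* window, chr9:118477939-118478188, overlapped no annotated transcript. The *Lhx9* window, chr1:138842458-138842694, lay in introns of the longer *Lhx9* transcripts, upstream of a shorter one. The *Tbr1* window, chr2:61804203-61804452, lay in an exon of a noncoding *Tbr1* transcript.
Eomes: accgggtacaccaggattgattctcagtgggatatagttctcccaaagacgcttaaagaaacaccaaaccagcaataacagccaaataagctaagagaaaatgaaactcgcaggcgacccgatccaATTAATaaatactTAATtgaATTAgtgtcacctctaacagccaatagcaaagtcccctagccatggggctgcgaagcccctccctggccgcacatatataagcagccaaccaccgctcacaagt
Lhx9: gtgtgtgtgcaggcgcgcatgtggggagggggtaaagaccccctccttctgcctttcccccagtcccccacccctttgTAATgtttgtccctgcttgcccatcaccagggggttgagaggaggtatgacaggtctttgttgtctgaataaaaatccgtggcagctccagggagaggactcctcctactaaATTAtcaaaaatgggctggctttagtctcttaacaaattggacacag
Tbr1: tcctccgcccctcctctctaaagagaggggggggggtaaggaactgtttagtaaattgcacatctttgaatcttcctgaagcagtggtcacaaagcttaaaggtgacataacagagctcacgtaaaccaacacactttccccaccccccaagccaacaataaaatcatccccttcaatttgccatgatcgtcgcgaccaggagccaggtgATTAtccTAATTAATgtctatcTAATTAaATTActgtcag
The *Eomes* window held 4 starts of TAAT, *Lhx9* 2 and *Tbr1* 7, counted on both strands with overlapping starts counted singly. All 13 are matches of letters, not sites. Of 32851 mouse promoter windows of 250 bases, 54.9% held at least 1 TAAT and 9.62% at least 4. TGATAC and the T-box half-site GGTGTGA were in none of the 3 windows, and in 4.64% and 3.33% of all windows.

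The rule fixed the levels of the 4 genes, which are given as a description. In the 808 cells *Eomes* stood at 283 CPM (268 to 299), with CPM meaning UMIs per 1000000 UMIs of the group. *Lhx9* stood at 233 CPM (220.1 to 247), *Tbr1* at 143 CPM (132 to 154) and *Rspo3* at 362 CPM (346 to 379.8). The other 7233 DKO cells outside the DKO reference group below had 3.66, 6.57, 1.56 and 6.61 CPM of these genes in the same order. In the DKO library the step at the limit was gradual: 224 cells had 2 UMIs, 183 had 3, 129 had 4, and 116 had 10 or more, up to 28. In the control library 114 cells had 1 UMI, 8 had 2 and 3 had exactly 3. Of those 3 control cells, 2 had *Lhx9* alone and 1 *Rspo3* alone, and none had *Eomes* or *Tbr1*.

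Free RNA was measured in cells of which at least 50% of the UMIs were hemoglobin, which should lack these genes. In such DKO cells 0.445% had a UMI of *Eomes*, 0.222% of *Lhx9*, 0.111% of *Tbr1* and 0.445% of *Rspo3*, at a median of 5705 UMIs per cell. The 808 cells had a median of 4713 UMIs and shares of 50.9%, 55.4%, 44.3% and 68.8%.

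*Uncx*, which the rule did not use, had UMIs in 79.5% (76.5 to 82.2) of the 808 cells, 31.0% of DKO and 17.6% of control reference cells. After each cell was thinned to 2000 UMIs the shares were 56.3%, 14.2% and 6.25%. Its level was 428 CPM against 35.7 CPM in the control and 91.1 CPM in the DKO reference cells, 12.02-fold (10.9 to 13.3) and 4.71-fold (4.397 to 5.04) higher. Of all *Uncx* UMIs in kept DKO cells, 34.1% (32.9 to 35.3) came from the 808 cells, which held 6.79% of all UMIs.

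**Figure D1:**
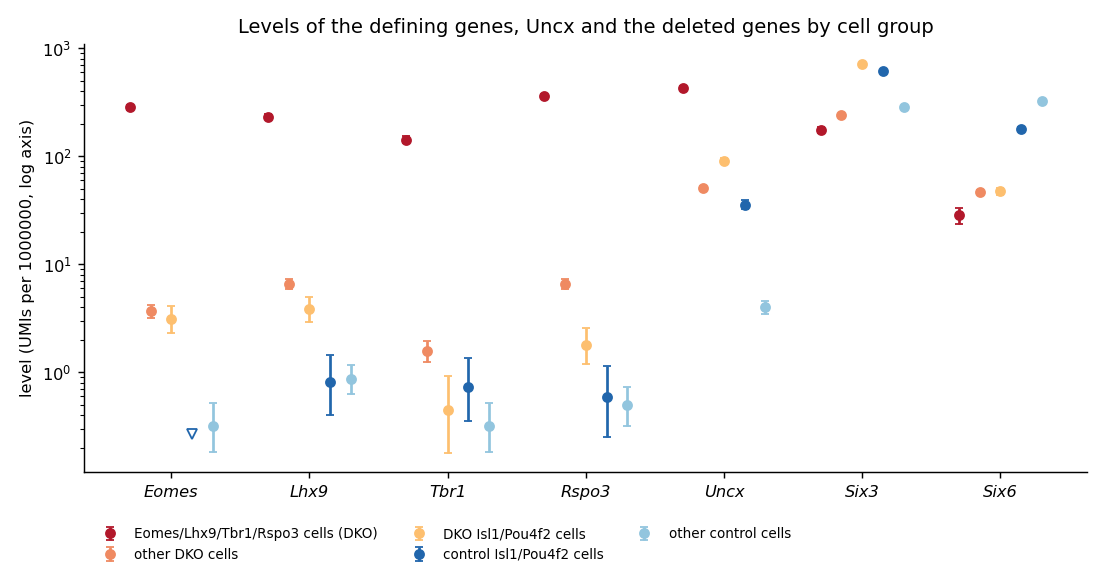
Levels of the 4 defining genes, *Uncx*, *Six3* and *Six6* in UMIs per 1000000 UMIs on a log axis, for 5 groups of cells, with exact 95% Poisson intervals; the open triangle is the upper limit where no UMI was found. The 4 defining genes are high in the chosen cells by construction, *Uncx* was not used to choose them, and *Six3* and *Six6* are low in them.

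The 4 genes were seldom all found in 1 cell. At least 1 UMI of *Rspo3* was found in 556 of the 808 cells, of *Lhx9* in 448, of *Eomes* in 411 and of *Tbr1* in 358. One of the genes alone was found in 201 cells (24.9%), a pair in 317 (39.2%), 3 in 222 (27.5%) and all 4 in 68 (8.42%). All 15 possible combinations occurred, and the most common was *Lhx9* with *Tbr1* and *Rspo3* in 93 cells. *Tbr1* alone was found in 4 cells, against 74 for *Eomes* alone and 75 for *Rspo3* alone. *Lhx9* was found in 65.4% of the cells with *Tbr1*, and in 41.8% of the cells with *Eomes*. Since a cell without one gene had to reach the limit with the others, these overlaps depend on the rule, and at a median of 4713 UMIs a gene with no UMI cannot be called absent.

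**Figure D2:**
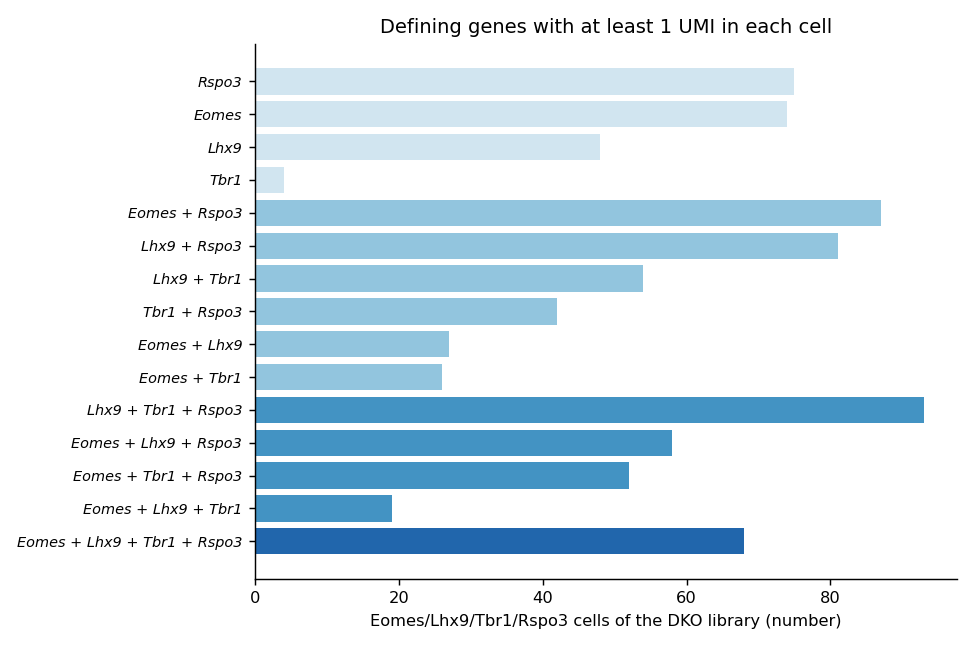
Number of chosen DKO cells with each combination of *Eomes*, *Lhx9*, *Tbr1* and *Rspo3*, a gene counting when it had at least 1 UMI; the darker the bar, the more genes. The bars run from 4 cells for *Tbr1* alone to 93 for *Lhx9* with *Tbr1* and *Rspo3*, and 68 cells had all 4.

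The name neurons held for most but not all of the cells. The 16 pan-neuronal genes, which code for cytoskeleton, RNA-binding and synaptic proteins of neurons in general, summed to 14154 CPM in the 808 cells, against 3159 CPM in the other DKO cells, 20800 CPM in the control and 27383 CPM in the DKO reference cells. The share of a cell's UMIs from these genes had a median of 1.49% and a lower quartile of 0.835% in the 808 cells, and a median of 0.133% and an upper quartile of 0.3395% in the other DKO cells. *Tubb3*, neuronal tubulin, had UMIs in 96.3% of the cells, *Elavl3* in 95.2% and *Stmn2* in 82.3%. Of the other DKO cells 43.4% had *Tubb3* and 30.2% *Stmn2*. In the control and DKO reference cells *Tubb3* was found in 98.4% and 99.3%, and *Stmn2* in 92.6% and 97.2%. When the cells were ordered by their pan-neuronal share of UMIs and cut into 3 bins of nearly equal size, the lowest bin had shares of 0.0121 to 1.04%. The cut at its upper end, set by the 808 cells themselves, was reached by 12.8% of the other DKO cells, 70.5% of the control and 89.1% of the DKO reference cells. The order is a range and not a type, with 212 cells within 10% of a cut.

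A small set stood apart. The summed UMIs of *Gja1*, *Wls*, *Mitf*, *Dct*, *Pmel*, *Tyrp1* and *Trpm1*, genes of the ciliary margin and the pigment epithelium, came to 5 or more in 44 of the 808 cells, and these 44 cells held 94.6% of such UMIs. Of the 44 cells, 81.8% had *Rspo3* and 25% *Eomes*, their median depth was 13281 UMIs, and 38 were in the lowest bin. Scrublet called 12 of the 44 cells doublets, and the part of doublets in this set was not tested. *Tubb3* stood at 549 CPM in them against 2709 CPM in the other 764 cells. Values without them are given below for *Wls*, *Gja1* and *Trpm1*. One cell held 3549 of the 5829 hemoglobin UMIs of the group, so hemoglobin was left out of the comparisons. Lens genes summed to 163 CPM. In another set of lens genes, with 626 UMIs in the group, 41.1% of the UMIs came from 1 cell. Macrophage genes summed to 33.7 CPM, of which 90.9% came from 7 cells, endothelial genes to 7.81 CPM, and mesenchymal genes to 18.1 CPM, of which 77.3% came from 1 cell. Scrublet called 66 of the 808 cells doublets (8.17%), against 3.05% of all kept DKO cells.

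*Six3* and *Six6*, the genes deleted in the DKO embryo, were low in the group. *Six3* stood at 176 CPM against 611 CPM in the control and 711 CPM in the DKO reference cells, and at 240.1 CPM in the other DKO cells. It was 3.47-fold (3.23 to 3.72) lower than in control and 4.04-fold (3.77 to 4.33) lower than in DKO reference cells. UMIs of *Six3* were found in 334 of the 808 cells (41.3%), up to 18 in a cell. *Six6* stood at 28.4 CPM against 178 CPM in the control and 47.5 CPM in the DKO reference cells, 6.29-fold (5.29 to 7.52) lower than in control and 1.68-fold (1.395 to 2.02) lower than in DKO reference cells. The counts come from the 3′ end of transcripts and do not tell an intact from a deleted allele, and no Cre transcript was counted, so which of these cells had lost *Six3* was not tested.

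The group was then set against 2 groups of cells chosen on *Isl1* and *Pou4f2*, transcription factors of retinal ganglion cells, with at least 2 UMIs of both together. These were 1589 control and 2086 DKO cells without any of the 808. Among the 808 cells 46 (5.69%) also passed this limit. The references were not neurons alone. *Mki67* or *Top2a*, genes of dividing cells, had UMIs in 22.1% of the control and 14.6% of the DKO reference cells, and in 16.1% of the 808. *Atoh7* had UMIs in 77.1% of the control and 44.7% of the DKO reference cells. Genes were compared when the mean of the 2 group levels was at least 20 CPM, without the 4 defining genes, *Isl1* and *Pou4f2*. Against the control reference 6388 genes were compared, of which 201 (3.15%) were at least 2-fold higher and 150 (2.35%) at least 2-fold lower in the 808 cells, around a median log2 ratio of 0.01. Against the DKO reference, cells of the same library, 6386 genes were compared, with 155 (2.43%) higher and 178 (2.79%) lower around a median of 0.04. Both comparisons share the 808 cells, and list counts below are read against these shares. The cell groups differ in depth, with medians of 4713 UMIs in the 808 cells, 7923 in the control and 6999 in the DKO reference cells.

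The 12 genes furthest above both references included 2 LIM-homeodomain factors, a DMRT factor of the telencephalon, and receptors for axon guidance. *Lhx1* stood at 71.9 CPM against 0.0731 CPM in the control and 6.91 CPM in the DKO reference cells, where the control value is 1 UMI. It was 10.4-fold (8.37 to 13.05) higher than in the DKO reference. *Lhx5*, its close relative, stood at 84.2 CPM against 0.731 CPM in the control and 6.78 CPM in the DKO reference cells, 115-fold (62.1 to 242) and 12.4-fold (10.02 to 15.5) higher. Both belong to the family of *Lhx9*, and both had UMIs in a minority of the cells, 23.3% for *Lhx1* and 33.7% for *Lhx5*.

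*Dmrta2*, a DMRT factor of the dorsal telencephalon, stood at 114 CPM against 3.87 CPM in the control and 8.63 CPM in the DKO reference cells, 29.4-fold (22.2 to 39.7) and 13.2-fold (10.9 to 16.04) higher. *St18*, a zinc finger factor of the Myt1 family, stood at 105 CPM against 8.402 CPM in the control and 7.61 CPM in the DKO reference cells, 12.5-fold (10.2 to 15.4) and 13.8-fold (11.3 to 16.99) higher. *Dmrta2* and *St18* had UMIs in 35.8% and 39.1% of the cells.

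*Nxph4*, a secreted neurexophilin that binds neurexins, had the largest lesser ratio, at 62.1 CPM against 1.90 CPM in the control and 2.24 CPM in the DKO reference cells, 32.7-fold (21.9 to 50.8) and 27.7-fold (19.5 to 40.6) higher. *Nrp2*, a neuropilin receptor for semaphorins, stood at 200.3 CPM against 6.79 CPM in the control and 15.8 CPM in the DKO reference cells, 29.5-fold (23.8 to 36.9) and 12.7-fold (11.02 to 14.6) higher. *Epha3*, an Eph receptor for ephrin-A ligands, stood at 298 CPM against 30.8 CPM in the control and 24.3 CPM in the DKO reference cells, 9.69-fold (8.68 to 10.8) and 12.3-fold (10.9 to 13.8) higher. *Epha3* was among the most widespread of the 12, with UMIs in 74.4% of the cells.

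Also among the 12 were *Samd5*, *Carmil1*, *Gm28050* and *Enc1*. *Samd5*, a sterile alpha motif protein, was 47.3-fold (36.3 to 62.6) and 11.6-fold (10.1 to 13.3) higher, and *Enc1*, an actin-binding kelch protein of the early nervous system, 12.1-fold (10.5 to 13.9) and 6.29-fold (5.68 to 6.98). *Carmil1*, a regulator of actin capping, was 8.65-fold (6.52 to 11.6) and 7.25-fold (5.63 to 9.397) higher, and *Gm28050* 14.3-fold (11.6 to 17.7) and 7.01-fold (6.02 to 8.18). Without the 44 margin and pigment cells, those of the 12 that are named here all stayed at least 2-fold above both references.

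**Figure D3:**
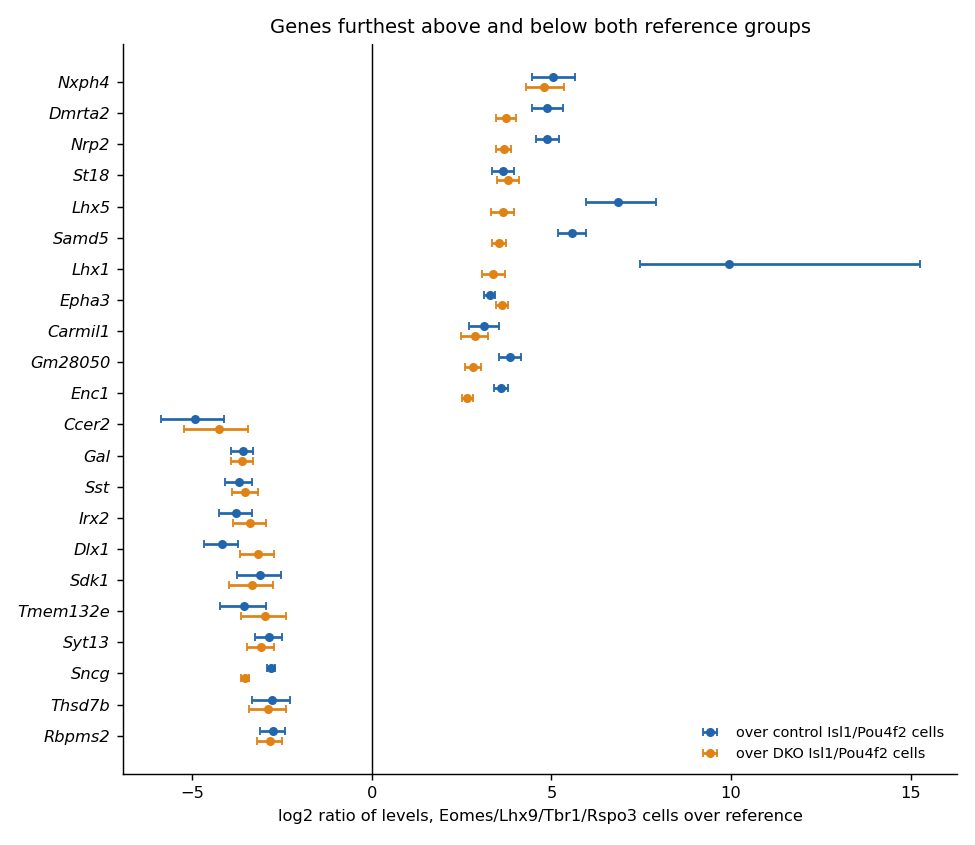
Log2 ratios of the level in the chosen cells over control (blue) and DKO (orange) reference cells for 11 of the 12 genes furthest above and 11 of the 12 furthest below both, with exact 95% intervals for counting error. The *Lhx1* interval against the control is wide because 1 control UMI was found, and the lower genes come from a reference chosen on ganglion cell factors.

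The 12 genes furthest below both references included ganglion cell genes, which a reference chosen on *Isl1* and *Pou4f2* selects for. *Sncg*, gamma-synuclein, stood at 145 CPM against 1024 CPM in the control and 1693 CPM in the DKO reference cells, 7.04-fold (6.53 to 7.601) and 11.6-fold (10.8 to 12.6) lower. The neuropeptide genes *Gal* and *Sst* (galanin and somatostatin) were 12.2-fold (9.897 to 15.2) and 13.05-fold (10.2 to 16.9) lower than in the control, and 12.3-fold (9.97 to 15.2) and 11.6-fold (9.08 to 15.03) lower than in the DKO reference. The homeobox genes *Irx2* and *Dlx1* stood at 8.63 and 8.01 CPM, against 119 and 146 CPM in the control and 91.4 and 72.8 CPM in the DKO reference. *Ccer2*, *Sdk1*, *Tmem132e*, *Syt13*, *Thsd7b* and *Rbpms2* were also among the 12, at 2.47, 4.93, 4.73, 13.8, 6.99 and 15.4 CPM in the 808 cells.

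Most UMIs of *Sncg*, *Gal* and *Sst* in the group came from the 46 cells that also met the *Isl1* and *Pou4f2* limit, 621 of 708 in the case of *Sncg*. In those 46 cells *Sncg* stood at 1151 CPM, against 20.1 CPM in the other 762 cells. *Gal* and *Sst* were at 122 and 108 CPM against 6.01 and 1.85 CPM. The 46 cells had less of *Lhx5* (20.4 against 92.2 CPM) and *Nxph4* (14.8 against 67.9 CPM), and more *Six3* (517 against 134 CPM). Scrublet called 15 of the 46 cells doublets, and the part of doublets in these values was not tested.

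Of the retinal ganglion list, 0 were at least 2-fold higher and 12 at least 2-fold lower of 13 compared, with a median log2 ratio of -2.33 against the control, and 0 were at least 2-fold higher and 10 at least 2-fold lower of 13 compared, with a median log2 ratio of -2.49 against the DKO reference. *Ebf1* stood at 203 CPM against 737 CPM in the control and 863 CPM in the DKO reference cells, and *Klf7* at 470.2 CPM against 970.2 CPM in the control and 867 CPM in the DKO reference cells. *Klf7* was 2.06-fold (1.97 to 2.16) lower than in the control, and its ratio to the DKO reference was under 2-fold. *Klf7* also fell under 2-fold against the control in 5 of the alternatives, among them at a log2 ratio of -0.65 without the lowest bin.

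Most pan-neuronal genes were within 2-fold of the references, and the others were lower. Against the control 0 were at least 2-fold higher and 4 at least 2-fold lower of 16 compared, with a median log2 ratio of -0.31, and against the DKO reference 0 were at least 2-fold higher and 6 at least 2-fold lower of 16 compared, with a median log2 ratio of -0.93. Lower against both were the neurofilament genes *Nefl* and *Nefm* and the growth cone gene *Gap43*. The RNA-binding *Elavl4*, the synaptic *Snap25* and the microtubule gene *Mapt* were lower against the DKO reference alone, and the axonal adhesion gene *Cntn2* against the control alone. *Nefl* stood at 274 CPM against 1085 CPM in the control and 2363 CPM in the DKO reference cells, *Nefm* at 406 CPM against 1901 CPM in the control and 3167 CPM in the DKO reference cells and *Gap43* at 619 CPM against 1933 CPM in the control and 3309.6 CPM in the DKO reference cells. *Dcx*, a microtubule protein of young neurons, stood at 657 CPM against 398 CPM in the control and 567 CPM in the DKO reference cells, and *Elavl3* at 802 CPM against 901 CPM in the control and 771 CPM in the DKO reference cells, so their ratios were within 2-fold of both references.

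Among transmitter genes the glutamatergic one stood out. *Slc17a6*, the vesicular glutamate transporter VGLUT2, stood at 223 CPM against 42.4 CPM in the control and 72.5 CPM in the DKO reference cells and had UMIs in 61.6% of the cells. It was 5.26-fold (4.75 to 5.83) and 3.07-fold (2.83 to 3.34) higher. *Gad2*, which makes GABA, stood at 5.96 CPM against 61.7 CPM in the control and 27.4 CPM in the DKO reference cells. The 6 GABAergic and glycinergic genes together summed to 21.8 CPM in the 808 cells, against 66.1 and 37.3 CPM in the control and DKO references.

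The forebrain patterning list lay above both medians of all genes compared. Against the control 11 were at least 2-fold higher and 0 at least 2-fold lower of 12 compared, with a median log2 ratio of 3.08, and against the DKO reference 10 were at least 2-fold higher and 0 at least 2-fold lower of 12 compared, with a median log2 ratio of 2.03. Most of this list was chosen with earlier results of these cells known, so its counts are no independent evidence. Besides *Dmrta2*, *Uncx*, *Epha3*, *Enc1* and *Samd5*, it held the nuclear receptors *Nr2f1* and *Nr2f2*. *Dmrt3* and the cortical hem signals *Wnt8b* and *Wnt3a* were at 0 in the 808 cells. *Emx2*, a homeobox factor of the dorsal telencephalon, and *Pou3f3*, a POU factor, were under the level compared, with *Emx2* at 20.1 CPM against 0 CPM in the control and 0.448 CPM in the DKO reference cells and *Pou3f3* at 22.2 CPM against 0.584 CPM in the control and 1.98 CPM in the DKO reference cells.

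Of the pallial excitatory neuron list, 7 were at least 2-fold higher and 1 at least 2-fold lower of 10 compared, with a median log2 ratio of 1.43 against the control, and 7 were at least 2-fold higher and 0 at least 2-fold lower of 10 compared, with a median log2 ratio of 1.51 against the DKO reference. *Neurog2*, a proneural bHLH factor of cortical and retinal progenitors, stood at 224 CPM against 16.95 CPM in the control and 40.5 CPM in the DKO reference cells, 13.2-fold (11.4 to 15.3) and 5.51-fold (4.996 to 6.09) higher. *Neurod1*, a bHLH factor downstream of the proneural genes, stood at 338 CPM against 98.7 CPM in the control and 121 CPM in the DKO reference cells, 3.43-fold (3.19 to 3.69) and 2.79-fold (2.61 to 2.98) higher. *Fezf2*, a zinc finger factor of the forebrain, stood at 103 CPM against 37.7 CPM in the control and 32.7 CPM in the DKO reference cells. *Fezf2* was no higher than in the other DKO cells, which had 111 CPM.

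Of the thalamic eminence and Cajal-Retzius list, 3 were at least 2-fold higher and 3 at least 2-fold lower of 13 compared, with a median log2 ratio of 0.76 against the control, and 7 were at least 2-fold higher and 3 at least 2-fold lower of 13 compared, with a median log2 ratio of 1.04 against the DKO reference. The higher ones against both included *Lhx1* and *Lhx5*. *Reln*, the secreted protein that marks Cajal-Retzius cells, stood at 55.5 CPM against 67.4 CPM in the control and 62.3 CPM in the DKO reference cells, within 2-fold of both references. *Calb2*, calretinin, was lower, at 7.603 CPM against 54.6 CPM in the control and 48.5 CPM in the DKO reference cells. *Ebf2*, an early B-cell factor, stood at 48.3 CPM against 25.7 CPM in the control and 11.6 CPM in the DKO reference cells, 4.15-fold (3.405 to 5.06) higher than in the DKO reference.

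Lists for other brain regions were mostly under the level compared. The midbrain genes summed to 1.64 CPM, with 6 of 10 at 0. Of the hypothalamus list 9 of 12 genes were under 5 CPM in the 808 cells, and 1 was compared with each reference. Of the thalamus list 3 genes were compared, of which *Lhx2* was higher and *Irx3* lower against both references. *Irx3*, an Iroquois homeobox gene, stood at 8.22 CPM against 44.1 CPM in the control and 102 CPM in the DKO reference cells.

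In the LIM family the levels ran beyond *Lhx9*. *Lhx2*, which the retina and the cortex need, had UMIs in 81.9% of the cells and stood at 382 CPM against 58.7 CPM in the control and 80.1 CPM in the DKO reference cells, 6.51-fold (5.99 to 7.08) and 4.77-fold (4.44 to 5.13) higher. *Lmo1*, a LIM-only protein without a DNA-binding domain, was lower at 28.97 CPM against 136 CPM in the control and 80.2 CPM in the DKO reference cells. *Ldb1*, the cofactor that LIM factors share, stood at 131 CPM against 84.02 CPM in the control and 73.7 CPM in the DKO reference cells. Apart from *Eomes* and *Tbr1*, of the T-box list *Mga* alone was compared with the control, within 2-fold, and 6 of the 13 T-box genes were at 0.

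Of the other genes on the pathway of *Rspo3*, most that were compared lay within 2-fold of the references. Of the R-spondin and Wnt list without *Rspo3*, 2 were at least 2-fold higher and 1 at least 2-fold lower of 11 compared, with a median log2 ratio of 0.53 against the control, and 3 were at least 2-fold higher and 0 at least 2-fold lower of 10 compared, with a median log2 ratio of 0.57 against the DKO reference. *Fzd1*, a Wnt receptor, stood at 81.6 CPM against 4.46 CPM in the control and 17.2 CPM in the DKO reference cells, 18.3-fold (13.95 to 24.4) and 4.74-fold (4.05 to 5.56) higher. *Lgr4*, an R-spondin receptor, stood at 20.8 CPM against 36.97 CPM in the control and 22.1 CPM in the DKO reference cells. *Wls*, which carries Wnt proteins out of the cell, was 128-fold (66.8 to 282) and 4.07-fold (3.51 to 4.72) higher, but without the 44 margin and pigment cells its log2 ratio fell to 3.28 against the control and was -1.70 in place of 2.02 against the DKO reference.

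Of the Notch list, 1 was at least 2-fold higher and 2 at least 2-fold lower of 8 compared, with a median log2 ratio of -0.19 against the control, and 4 were at least 2-fold higher and 0 at least 2-fold lower of 7 compared, with a median log2 ratio of 1.08 against the DKO reference. *Dll3*, a Notch ligand that acts inside the cell, stood at 84.2 CPM against 21.4 CPM in the control and 12.02 CPM in the DKO reference cells, 3.94-fold (3.38 to 4.59) and 7.01-fold (5.88 to 8.37) higher. *Dll1*, a ligand on the surface, stood at 43.2 CPM against 26.7 CPM in the control and 14.6 CPM in the DKO reference cells. *Hes5*, a Notch target, was lower than in the control, at 36.99 against 89.9 CPM.

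Axon guidance genes lay on both sides of the references. Against the control 7 were at least 2-fold higher and 2 at least 2-fold lower of 21 compared, with a median log2 ratio of 0.22, and against the DKO reference 7 were at least 2-fold higher and 5 at least 2-fold lower of 22 compared, with a median log2 ratio of 0.20. Together with *Nrp2* and *Epha3*, *Plxna4*, a plexin that pairs with neuropilins, was higher, at 54.04 CPM against 4.603 CPM in the control and 17.5 CPM in the DKO reference cells, 11.7-fold (8.89 to 15.7) and 3.08-fold (2.59 to 3.67). The adhesion gene *Nrcam* stood at 202 CPM against 61.1 CPM in the control and 95.1 CPM in the DKO reference cells. *Robo2*, a Slit receptor that ganglion cell axons use, stood at 42.1 CPM against 219 CPM in the control and 219 CPM in the DKO reference cells, 5.205-fold (4.52 to 6.03) and 5.21-fold (4.52 to 6.02) lower.

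The amacrine and horizontal list split as well: against the control 3 were at least 2-fold higher and 2 at least 2-fold lower of 9 compared, with a median log2 ratio of -0.43, and against the DKO reference 3 were at least 2-fold higher and 2 at least 2-fold lower of 9 compared, with a median log2 ratio of 0.00. *Barhl2*, a BarH homeobox factor of amacrine and ganglion cells, stood at 129 CPM against 59.8 CPM in the control and 47.96 CPM in the DKO reference cells, 2.15-fold (1.94 to 2.39) and 2.68-fold (2.41 to 2.99) higher. *Pax6*, which the eye needs from its start, stood at 278 CPM against 655 CPM in the control and 609.6 CPM in the DKO reference cells, 2.35-fold (2.22 to 2.49) and 2.19-fold (2.07 to 2.32) lower. *Onecut2* stood at 517 CPM against 1077 CPM in the control and 879 CPM in the DKO reference cells. No photoreceptor gene reached the level compared.

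Of the neuropeptide list, 3 were at least 2-fold higher and 2 at least 2-fold lower of 9 compared, with a median log2 ratio of -0.00 against the control, and 1 was at least 2-fold higher and 2 at least 2-fold lower of 10 compared, with a median log2 ratio of -0.65 against the DKO reference. *Nxph4* was higher and *Gal* and *Sst* were lower against both. *Tac1*, which codes for substance P, stood at 226 CPM against 30.6 CPM in the control and 199 CPM in the DKO reference cells. It was 7.38-fold (6.59 to 8.28) higher than in the control and 1.14-fold (1.06 to 1.22) higher than in the DKO reference, where the other *Isl1* and *Pou4f2* cells of the mutant also carried it. Without *Lhx9* among the defining genes its log2 ratio to the control was 1.71 in place of 2.88. *Scg2*, a secretogranin, was 2.73-fold (2.26 to 3.29) and 1.75-fold (1.48 to 2.06) higher.

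Genes of the cell cycle were below their level in the other DKO cells, and between their levels in the control and DKO reference cells. The 12 S phase genes summed to 376 CPM, against 1136 CPM in the other DKO, 455 CPM in the control reference and 316 CPM in the DKO reference cells. The 12 genes of G2 and mitosis summed to 499 CPM, against 1916, 696 and 312 CPM in the same order. Against the DKO reference 0 genes of either list were past 2-fold, of 8 and 6 compared, and their median log2 ratios were 0.15 and 0.64. *Cdkn1c*, an inhibitor of cyclin-dependent kinases, stood at 608 CPM against 213 CPM in the control and 264 CPM in the DKO reference cells, 2.86-fold (2.71 to 3.01) and 2.301-fold (2.19 to 2.41) higher. Without *Eomes* among the defining genes, *Cdkn1c* was at log2 ratios of 0.84 to the control and 0.51 to the DKO reference, and without the lowest bin at 0.52 and 0.21, all under 2-fold. *Gadd45g* was 3.68-fold (3.11 to 4.35) and 2.78-fold (2.39 to 3.23) higher, and without the lowest bin it was at log2 ratios of 0.74 and 0.33. *Atoh7*, the bHLH factor that precedes ganglion cells, was 4.17-fold (3.93 to 4.43) lower than in the control and 1.64-fold (1.54 to 1.74) lower than in the DKO reference, with UMIs in 22.4% of the cells.

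The DKO UMIs of several genes were concentrated in these cells. The 808 cells held 6.79% of the UMIs of the kept DKO cells, but 44.6% (41.1 to 48.1) of *Lhx1*, 42.5% (39.7 to 45.3) of *St18*, 41.6% (37.98 to 45.3) of *Nxph4* and 39.5% (36.5 to 42.5) of *Lhx5*. They held 38.96% (37.1 to 40.8) of *Slc17a6* and 36.6% (33.8 to 39.5) of *Dll3*. *Sorbs2*, an adaptor protein of the actin cytoskeleton named after its values were seen, had UMIs in 90.6% of the cells, stood at 954 CPM against 172 CPM in the control and 161 CPM in the DKO reference cells, and had 35.96% (35.1 to 36.8) of its DKO UMIs there. The shares were lower for *Dmrta2* (19.1%) and *Lhx2* (11.1%), which other DKO cells also carried at 43.1 and 268 CPM. Further genes raised in the group were not confined to it. Among the other 7233 DKO cells 26.2% had a UMI of *Epha3*, 22.1% of *Neurog2* and 21.9% of *Samd5*. For *Enc1*, *Tac1* and *Nrp2* it was 18.2%, 16.1% and 15.1% of them. Fewer had *Lhx1* (2.85%), *Slc17a6* (4.63%), *Nxph4* (4.67%) or *Lhx5* (5.67%).

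**Figure D4:**
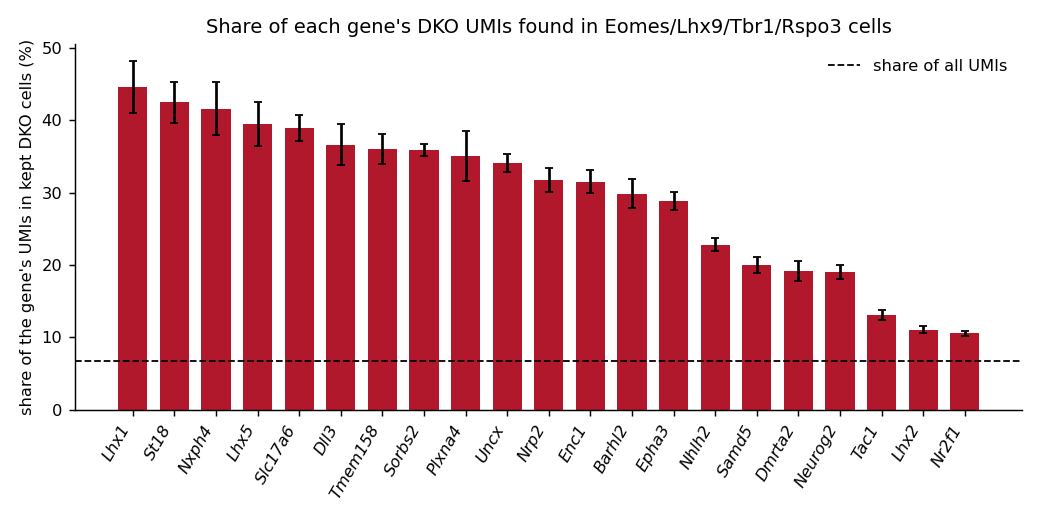
Share of each gene's UMIs in kept DKO cells that came from the chosen cells, in percent, with exact 95% binomial intervals; the dashed line is their share of all UMIs, 6.79%. The bars run from 44.6% for *Lhx1* to 10.5% for *Nr2f1*.

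The cells were not alike along the pan-neuronal share. Levels are given for the lowest, middle and highest bin of 270, 269 and 269 cells, ordered by that share, at median depths of 4785, 4389 and 4983 UMIs. Of the defining genes *Eomes* was highest in the lowest bin, at 395, 295 and 141 CPM. *Lhx9* was lowest there, at 83.2, 296 and 357 CPM. *Tbr1* was highest in the middle, at 92.7, 209.6 and 144 CPM, as were *Rspo3* at 302, 440.2 and 367 CPM and *Uncx* at 254, 591 and 494 CPM.

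The 8 genes with the largest rise from the lowest to the highest bin were neuronal genes for the most part. *Sncg* stood at 5.83, 70.8 and 376 CPM, *Tmem158*, a membrane protein, at 15.4, 130.1 and 334 CPM, and the neurexin gene *Nrxn3* at 8.48, 58.5 and 127 CPM. The *Sncg* UMIs lay mostly in the 46 cells described above. *Ebf1* stood at 32.3, 180.0 and 424 CPM, and *Crabp1*, a retinoic acid binding protein, at 51.9, 91.8 and 598 CPM. The sodium channel gene *Scn3a* and the stathmin gene *Stmn4* were also among the 8. *Tac1*, from the neuropeptide list, went the same way, at 58.8, 156 and 484 CPM. The pan-neuronal genes ordered the cells, so their own rise is fixed.

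The 8 genes with the largest fall belong to dividing and marginal cells. *Gja1*, connexin 43, stood at 402, 26.7 and 14.4 CPM, *Trpm1*, a channel of pigment cells, at 254, 18.8 and 9.404 CPM, and *Wls* at 198, 19.5 and 6.27 CPM. The 44 margin and pigment cells carried most of these, with *Gja1* at 1219 CPM against 8.52 CPM in the other 764 cells, and *Trpm1* at 776 against 5.44 CPM. *Cenpf* and *Ube2c*, genes of mitosis, stood at 233, 51.3 and 7.52 CPM and 186, 36.9 and 8.78 CPM. *Notch1* stood at 108, 41.2 and 4.39 CPM, *Ccnd2*, a G1 cyclin, at 188, 31.1 and 8.15 CPM, and *Apoe* at 279, 95.4 and 15.05 CPM.

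Other genes stayed within 2-fold over the 3 bins and were highest in the middle. *Lhx1* stood at 61.4, 90.3 and 68.3 CPM, *Lhx5* at 80.5, 100.5 and 74.6 CPM, *Lhx2* at 359, 437 and 362 CPM, and *Epha3* at 271, 387 and 253 CPM. *Neurog2* was lower in the highest bin, at 293, 242 and 125 CPM, as were *Cdkn1c* at 1084, 344 and 273 CPM and *St18* at 126, 129 and 59.6 CPM. *Six3* stood at 147, 160.5 and 224 CPM. Of its 857 UMIs in the group, 279 lay in the 46 cells that also met the *Isl1* and *Pou4f2* limit.

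**Figure D5:**
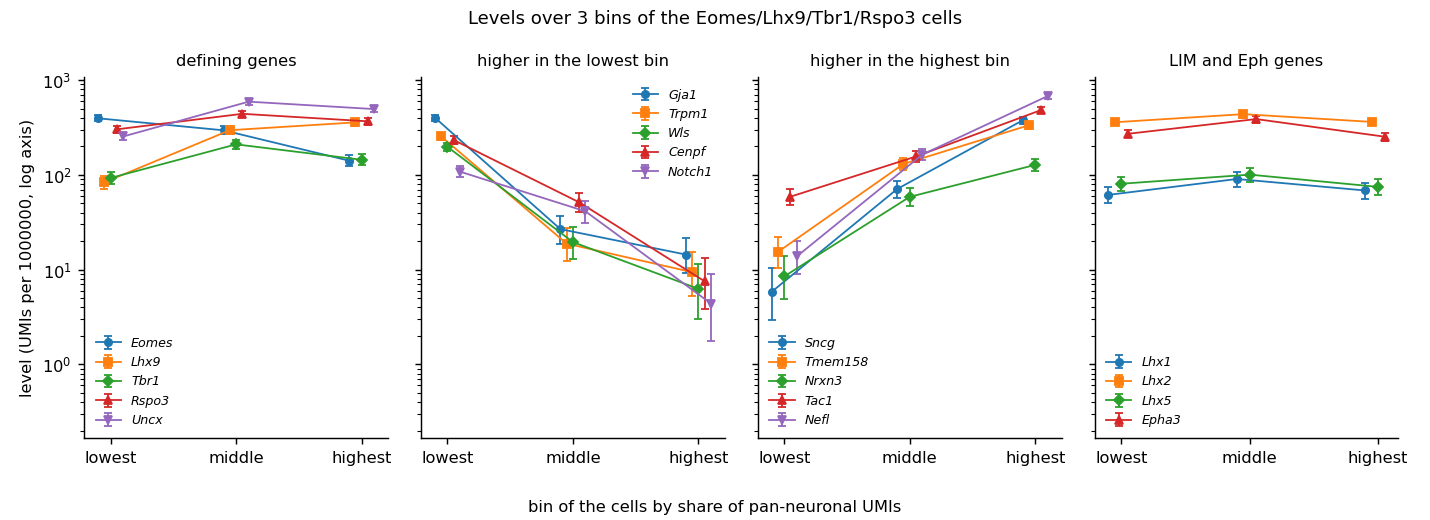
Levels in UMIs per 1000000 UMIs on a log axis in the lowest, middle and highest bin of the chosen cells by their share of pan-neuronal UMIs, with exact 95% Poisson intervals, for 4 sets of 4 or 5 genes. *Eomes* falls and *Lhx9* rises from the lowest to the highest bin, and *Gja1*, *Trpm1* and *Wls* are highest by far in the lowest bin. *Lhx1*, *Lhx2*, *Lhx5* and *Epha3* are highest in the middle bin and stay within 2-fold over the bins.

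Cells with at least 2 UMIs of a defining gene were also set beside group cells with none of it, as a description that the rule partly fixes. The 315 *Eomes* cells had more *Cdkn1c* than the 397 cells without *Eomes* (1099.9 against 294 CPM), more *Neurog2* (351 against 136 CPM), more *Dll3* (131 against 44.9 CPM) and more *St18* (170.2 against 55.6 CPM). They had less *Tac1* (80.7 against 328 CPM). Of these cells 53.3% were in the lowest bin.

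The 292 *Lhx9* cells had more *Tac1* than the 360 cells without *Lhx9* (497 against 65.4 CPM), more *Onecut2* (873 against 251 CPM) and more *Meis2* (212 against 72.5 CPM). They also had more *Vcan*, the matrix proteoglycan versican named after its values were seen (490.4 against 80.1 CPM). They had less *Cdkn1c* (286 against 927 CPM). Of these cells 47.6% were in the highest bin.

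The 197 *Tbr1* cells had more *Nrp2* than the 450 cells without *Tbr1* (357 against 106 CPM), more *Barhl2* (209.7 against 81.4 CPM) and more *Slc17a6* (332 against 165 CPM), and less *Onecut2* (223 against 666 CPM). The 413 *Rspo3* cells had more *Trpm1* than the 252 cells without *Rspo3* (183 against 25 CPM) and more *Gja1* (277 against 52.02 CPM). The 44 margin and pigment cells carried these differences: without them the levels were 6.16 against 4.40 CPM for *Trpm1*, from 13 and 6 UMIs, and 11.4 against 5.87 CPM for *Gja1*, from 24 and 8 UMIs. The *Rspo3* cells had less *Tac1* (99.8 against 451 CPM). *Uncx* was found with each of the 4 genes, in 81.0% of the *Eomes*, 84.9% of the *Lhx9*, 87.3% of the *Tbr1* and 79.7% of the *Rspo3* cells.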

How the data were processed

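Single-cell libraries (10x Genomics Single Cell 3′, version 3) were sequenced, mapped to mm10 and counted by the authors with Cell Ranger 3.1.0, and the deposited counts are UMIs per gene and cell without normalization. Cells were kept at over 200 and under 6000 genes, mitochondrial UMIs from 1 to 20%, hemoglobin under 20% and *Cryaa* with *Cryab* under 1% of UMIs, which left 7331 of 10315 control and 10127 of 12672 DKO cells, with medians of 7923 and 6137 UMIs. UMIs were summed over the cells of a group and given per 1000000 UMIs (CPM) with exact Poisson 95% intervals. For ratios the 95% interval came from an exact binomial interval on the division of a gene's UMIs between both groups, and shares have the same kind of interval. A level of 0 was set to a floor of 3 UMIs per group for ratios. Hemoglobin genes, *Xist*, *Tsix* and genes of the Y chromosome did not enter the comparisons.

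With 1 library per genotype no test was made, and the counts of genes past 2-fold describe these libraries. Members and all gene lists were chosen with earlier results of these data known. Named were at most 6 genes per list, the 12 genes furthest above and below both references, the 8 with the largest rise and fall over the 3 bins by pan-neuronal share (mean CPM of at least 50), and genes said to be named after their values were seen. Some genes that this rule takes are not reported here. Shares of cells with a UMI were taken without thinning, and so depend on depth, except where thinning is stated. Where it is stated, cells were thinned to 2000 UMIs with seed 7. Scrublet (scanpy 1.11.5) scored doublets, and its lower automatic threshold, 0.217, used for both libraries, called 317 control and 349 DKO cells. They were kept except in an alternative. Software was pandas 2.3.3, scipy 1.17.1 and numpy 2.4.6 under Python 3.11.15, with matplotlib 3.10.9 for figures, and the ratio and its interval were checked on simulated counts.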

Additional observations from a re-analysis of the deposited data

Results flagged for a closer look

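Cells outside the limits on genes, mitochondrial, hemoglobin and lens UMIs entered no comparison, and 21 DKO cells and 1 control cell among them had at least 3 UMIs of *Eomes*, *Lhx9*, *Tbr1* and *Rspo3* together, a signal in data that the comparisons did not use and above the level in the control library. Of the 21 DKO cells, 11 were over the hemoglobin limit, 7 had too many genes, 2 were under the mitochondrial limit and 1 was over the lens limit. Their median depth was 11073 UMIs, and Scrublet called 6 of them doublets. The part of doublets in this signal was not tested.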

How the results depend on the processing

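With 1 library per genotype, animal and library cannot be told apart from genotype, and counting error is the only error known. No paired analysis was possible because there was 1 library of each kind. The number of DKO cells depended on the rule: it was 496 with at least 5 UMIs, 334 when each cell was thinned to 2000 UMIs, and 538 without the lowest bin by pan-neuronal share, an alternative chosen after seeing the data. A mean CPM of at least 50 left 86 genes higher and 73 lower than in the control reference, and 69 higher and 86 lower than in the DKO reference. With no filter but 1 UMI these were 1546, 917, 1264 and 1043. The number of genes compared with the control was 3437 and 14724 under these filters, in place of 6388, and the larger count includes genes with few UMIs. Under the other alternatives (2 UMIs, each defining gene left out, doublets or cycling cells left out, at least 1000 genes, other reference limits, equal weight per cell, centred ratios, and the 44 margin and pigment cells left out, the latter chosen after seeing the data) the number of cells and the 4 gene counts stayed within 1.5 times. The log2 ratios of the 94 named genes to both references were recomputed in 18 alternatives, so each ratio was counted up to 18 times. This gave 2552 values for ratios past 2-fold in the main setting. Of these values 29 turned direction, all in the margin and pigment genes, *Apoe*, *Ccnd2* and *Notch1*. Without those 44 cells the log2 ratios to the DKO reference were -0.048 for *Apoe*, -3.31 for *Dct*, -2.30 for *Gja1*, -0.88 for *Mitf*, -2.02 for *Pmel*, -2.03 for *Trpm1* and -1.70 for *Wls*, and to the control reference -0.55 for *Dct*, -0.10 for *Gja1* and -0.20 for *Pmel*. Without the lowest bin they were -0.079 for *Apoe*, -0.74 for *Ccnd2*, -1.49 for *Dct*, -1.06 for *Gja1*, -0.21 for *Mitf*, -0.28 for *Notch1*, -0.69 for *Trpm1*, 0.17 for *Tyrp1* and -0.74 for *Wls* to the DKO reference and -0.39 for *Ccnd2* to the control reference. Without *Rspo3* in the rule they were -0.23 for *Apoe*, -0.38 for *Dct*, -0.33 for *Gja1*, -0.63 for *Mitf*, -0.029 for *Pmel*, -0.63 for *Trpm1* and 0.036 for *Tyrp1* to the DKO reference. *Tyrp1* was below the DKO reference at 3 UMIs and above it at 2 UMIs (1.15) and 5 UMIs (0.20). Another 58 kept their direction but fell under 2-fold, among them *Cdkn1c* and *Gadd45g* without *Eomes* in the rule or without the lowest bin, *Klf7* and *Onecut2* against the control in several settings, *Wls* against the DKO reference without *Rspo3* in the rule, and, at 2 UMIs, *Barhl2* against the control and *Pax6* against the DKO reference. In all, 182 of the 2552 moved by over 1.5 times. The causes of these moves were not tested.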
